A study of Mus musculus with 8 samples.

Results

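Accessible regions of the eribulin-resistant derivative of the mouse breast cancer line PB3 were examined where they had no peak in the parental line but a peak in another resistant derivative as well. A region belonged to the set when it overlapped, by 1 bp or more, an interval of the eribulin (ERI) peak list and of the paclitaxel (PAC) or vinorelbine (VIN) list, and no interval of the parental (Control) list. The members were thus chosen by measured values, the peaks called in each line. The rule found 1466 of 57417 consensus regions (2.553%), or 4.877% of the 30062 regions in the ERI list. Of these, 582 (39.7%) were in all 3 resistant lists, 144 (9.823%) in ERI and PAC only and 740 (50.48%) in ERI and VIN only. For comparison, 18043 regions were in all 4 lists and 9700 in the ERI list alone.

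PB3 cells carry the labels Er-, Pr- and Her2-. PB3-Parental was untreated, and PB3-ERI-R, PB3-PAC-R and PB3-VIN-R were made resistant to eribulin, paclitaxel or vinorelbine with 300, 500 and 800 nM of the drug. The labels speak of resistant clones and give 1 derived line per drug, so each drug is represented by a single line. Each line had 2 ATAC-seq libraries with 10521964 to 24052237 counts in the consensus regions. PB3-VIN-R had the most, 24052237 and 23206697, against 15029435 and 13774822 in PB3-PAC-R. The VIN list was also the longest, with 45415 intervals against 39414 in the PAC list. The part of depth and list length in the larger ERI and VIN class was not tested. Nothing in the labels says that the 2 libraries came from separate cultures, so each p-value covers the spread between libraries alone, and that spread may be technical. Whether drug was present at harvest is not stated. In bulk libraries, a change in every cell and a change in the share of cells cannot be told apart.

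ATAC-seq uses a transposase that cuts DNA where nucleosomes leave it exposed, so active promoters and enhancers collect many cuts. A peak list records where this signal passed a threshold, and a place just above that threshold in one sample can fall just below it in another. Eribulin and vinorelbine hinder microtubule growth, while paclitaxel stabilises microtubules, and the series concerns the shift of breast cancer cells between mesenchymal and epithelial states.

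The 5 promoters below, inside these regions, show the patterns in the counts and were chosen after their values were seen. The sequences are those of RefSeq for GRCm38.p6, from 250 bases before to 50 bases after the start, written 5′ to 3′ along the gene's strand. Capitals mark matches, on either strand, to the AP-1 letters TGANTCA, the TEAD letters GGAATG or the RUNX letters TGTGGT. Cmpk2, a mitochondrial nucleotide kinase induced by interferon, lies at chr12:26468965-26469264 (plus strand) and had higher counts in all 3 resistant lines than in the parental line. Prdm1, a transcriptional repressor gene, lies at chr10:44458699-44458998 (minus strand), was in all 3 resistant lists and was highest in PB3-ERI-R. Serpinb5, which encodes the mammary serpin maspin, lies at chr1:106860925-106861224 (plus strand), and Il17rb, a cytokine receptor gene, at chr14:30008847-30009146 (minus strand). Both were in the ERI and VIN lists with PB3-VIN-R near the parental level. The region over the Il17rb promoter also covers the Chdh promoter on the plus strand, so its counts belong to both. Mfn2, a mitochondrial fusion GTPase gene, lies at chr4:147904612-147904911 (minus strand), was in all 3 resistant lists and differed little between lines.
Cmpk2: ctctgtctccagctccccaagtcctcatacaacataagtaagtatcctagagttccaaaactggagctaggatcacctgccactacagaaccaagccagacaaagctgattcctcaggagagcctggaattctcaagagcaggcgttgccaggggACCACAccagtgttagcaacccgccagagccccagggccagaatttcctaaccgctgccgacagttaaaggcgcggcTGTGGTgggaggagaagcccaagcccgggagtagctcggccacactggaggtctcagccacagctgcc
Prdm1: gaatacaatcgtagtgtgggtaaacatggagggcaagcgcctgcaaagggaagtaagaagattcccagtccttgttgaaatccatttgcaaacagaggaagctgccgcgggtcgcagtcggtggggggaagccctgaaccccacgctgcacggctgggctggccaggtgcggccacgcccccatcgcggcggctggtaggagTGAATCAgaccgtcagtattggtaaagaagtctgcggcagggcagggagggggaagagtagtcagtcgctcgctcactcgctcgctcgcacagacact
Serpinb5: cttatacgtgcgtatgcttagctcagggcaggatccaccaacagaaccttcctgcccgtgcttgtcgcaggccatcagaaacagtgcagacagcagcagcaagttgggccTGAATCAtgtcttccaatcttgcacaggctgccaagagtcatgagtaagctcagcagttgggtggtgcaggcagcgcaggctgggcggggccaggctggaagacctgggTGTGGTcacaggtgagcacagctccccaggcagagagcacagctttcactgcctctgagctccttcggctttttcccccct
Il17rb: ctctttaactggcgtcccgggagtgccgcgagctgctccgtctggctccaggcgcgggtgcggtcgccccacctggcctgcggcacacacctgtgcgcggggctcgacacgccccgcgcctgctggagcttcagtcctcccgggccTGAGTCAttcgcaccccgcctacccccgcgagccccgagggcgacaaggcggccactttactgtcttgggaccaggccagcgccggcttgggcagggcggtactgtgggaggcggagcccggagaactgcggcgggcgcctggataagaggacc
Mfn2: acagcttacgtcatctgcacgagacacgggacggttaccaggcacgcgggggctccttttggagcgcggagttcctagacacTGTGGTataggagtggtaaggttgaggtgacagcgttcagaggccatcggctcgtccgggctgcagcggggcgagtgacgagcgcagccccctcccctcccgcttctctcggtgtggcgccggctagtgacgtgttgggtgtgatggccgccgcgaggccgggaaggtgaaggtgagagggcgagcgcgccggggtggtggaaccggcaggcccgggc

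Values are given in CPM, which are counts scaled to a common library size by TMM. The Cmpk2 promoter region held 9.45 and 6.65 CPM in PB3-Parental, 38.6 and 41.5 in PB3-ERI-R, 18.1 and 14.7 in PB3-PAC-R, and 20.5 and 14.3 in PB3-VIN-R. Every resistant library lay above both parental ones, and both PB3-ERI-R libraries above the rest. The Prdm1 region held 10.6 and 11.8 CPM in PB3-Parental, 44.4 and 39.9 in PB3-ERI-R, 9.07 and 10 in PB3-PAC-R, and 10.2 and 15.6 in PB3-VIN-R. Here PB3-Parental and PB3-VIN-R overlapped and both PB3-PAC-R libraries lay below them, although all 3 resistant lists named a peak. PB3-ERI-R exceeded PB3-PAC-R by 2.14 ± 0.24 at Prdm1 (log2, ± SE; edgeR adjusted p = 1.17e-06).

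The Serpinb5 region held 4.82 and 3.66 CPM in PB3-Parental, 65.1 and 69.2 in PB3-ERI-R, 4.01 and 2.47 in PB3-PAC-R, and 5.65 and 4.70 in PB3-VIN-R, and the Il17rb region 6.86 and 10.2 CPM in PB3-Parental, 52.3 and 46.1 in PB3-ERI-R, 3.83 and 4.79 in PB3-PAC-R, and 5.72 and 9.07 in PB3-VIN-R. The difference between PB3-ERI-R and PB3-VIN-R, both of which had a peak there, was 3.69 ± 0.25 at Serpinb5 (edgeR adjusted p = 8.48e-09) and 2.73 ± 0.27 at Il17rb (edgeR adjusted p = 3.82e-07). At Mfn2 the 8 libraries ran from 15.3 to 22.4 CPM, and PB3-ERI-R differed from PB3-PAC-R by -0.36 ± 0.24 (edgeR adjusted p = 0.202).

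Members lay over 146 promoters of 133 genes in the RefSeq promoter table, with at least 150 of the 300 bases covered. TGANTCA occurred in 8.90% of them, beside 6.99% of all 21263 promoters of that length, 4.17% of those in regions of all 4 lists and 6.25% of those in ERI-only regions. GGAATG occurred in 14.4% against 13.6% of all promoters, and TGTGGT in 17.1% against 15.0%. The GRHL letters AACCNGGTT occurred in 0 member promoters against 0.254%, the CRE letters TGACGTCA in 2.74% against 2.23% and the E-box letters CANNTG in 74.7% against 69.0%. E-box letters can overlap any of the other motifs. The median GC content was 61.3% in member promoters and 56.3% in all promoters. These shares describe letters only, and few of the member promoters hold any one motif besides the E-box.

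Across the set, counts were highest in PB3-ERI-R, and although the regions share peaks by list, the other resistant lines stayed close to the parental line. The median CPM of the 1466 regions was 6.80 and 6.09 in the PB3-Parental libraries, 18.5 and 17.4 in PB3-ERI-R, 7.38 and 6.57 in PB3-PAC-R, and 7.36 and 6.82 in PB3-VIN-R. The regions took 3.012% and 2.896% of all counts in PB3-ERI-R and 1.218% to 1.438% in the other 6 libraries. PB3-ERI-R had the highest mean in 1424 regions (97.1%). The lowest mean fell to PB3-Parental in 670 regions (45.7%), to PB3-PAC-R in 408 and to PB3-VIN-R in 377.

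**Figure D1:**
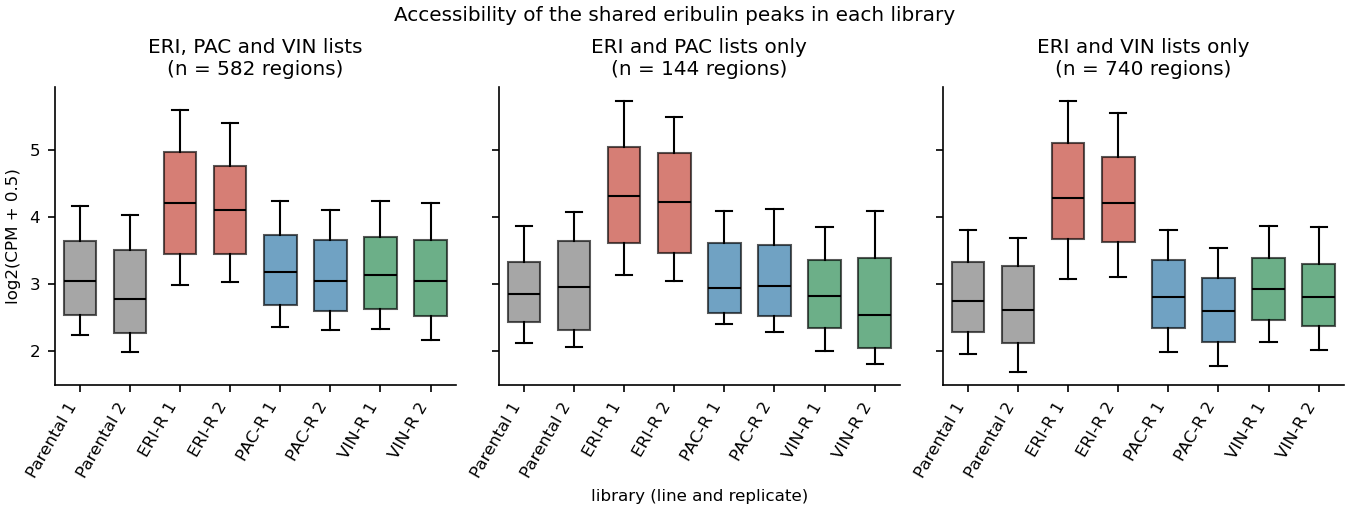
Each box shows log2(CPM + 0.5) of the regions in 1 library, by the peak lists that hold them; lines mark medians, boxes the quartiles and whiskers the 10th and 90th percentiles. The PB3-ERI-R libraries, with median CPM of 18.5 and 17.4 over all members, lie above the other 6 in each panel.

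The peak lists chose the regions, so differences from the parental line describe the choice and were not read as tests. The median log2 fold change over PB3-Parental was 1.32 in PB3-ERI-R and 0.06 in PB3-PAC-R, while PB3-VIN-R reached 0.08; the medians over all 57415 tested regions were 0.07, -0.01 and -0.01. All 1466 regions passed the filter on low counts. Past an edgeR adjusted p of 0.05, 1223 members were higher in PB3-ERI-R than in PB3-Parental (83.4%, against 35.4% of all regions). In PB3-PAC-R 1 was higher (0.0682%, against 0.0314%) and in PB3-VIN-R 19 were (1.30%, against 0.388%). Each line had 1 member below the parental line, which lay inside Sipa1l3, inside Med12l and near Sik1. That was 0.0682% of members, against 37.6%, 0.0540% and 0.289% of all regions in the order ERI, PAC, VIN. Leaving out 1 library at a time moved the counts of higher regions to between 0 and 7 for PB3-PAC-R and between 1 and 31 for PB3-VIN-R, with the highest values without PB3-Parental replicate 1. Both PB3-ERI-R libraries lay above the other 6 libraries in 1304 regions (88.9%, against 39.9% of all regions). Both PB3-PAC-R libraries lay above both parental ones in 279 (19.0%, against 14.6%) and both PB3-VIN-R libraries in 336 (22.9%, against 15.4%). All 6 resistant libraries lay above both parental libraries in 162 (11.1%, against 2.53% of all regions).

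Membership of a list went with small differences. In regions of the PAC list the median PB3-PAC-R difference from the parental line was 0.12 on the log2 scale (726 regions), and -0.01 in members outside it (740 regions). For PB3-VIN-R the medians were 0.10 (1322 regions) and -0.14 (144 regions). At least 0.5 above the parental line in the list's own line were 67 of the 726 regions in the PAC list and 148 of the 1322 in the VIN list. Of all 57415 tested regions, 3270 and 4150 were. In all 3 resistant lines together, 78 of the 1466 members were at least 0.5 above the parental line, beside 878 of the 57415 regions. At least 1 above it were 15 of the members and 259 of the 57415 regions.

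**Figure D2:**
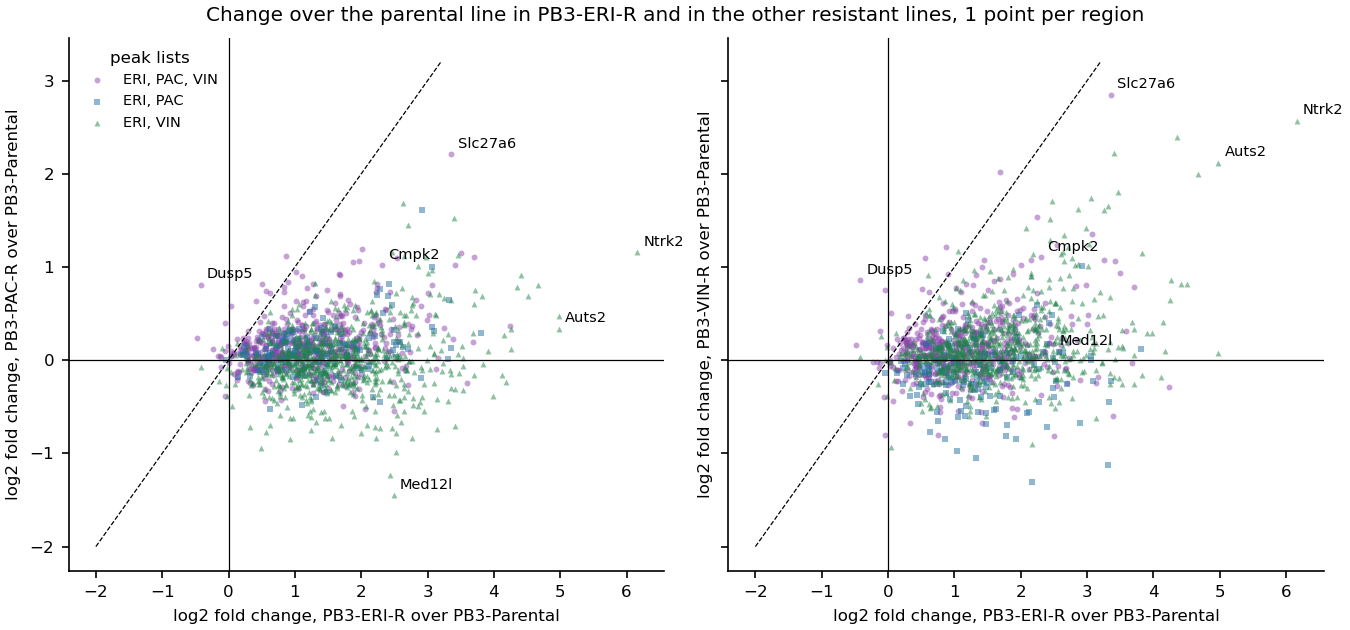
Each point is 1 region, with its log2 fold change over PB3-Parental in PB3-ERI-R on the x axis and in PB3-PAC-R (left) or PB3-VIN-R (right) on the y axis; the dashed line marks equal change and colours the peak lists. Medians were 1.32 on the x axis and 0.06 and 0.08 on the y axes, so most points lie along the horizontal line at 0.

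The peaks themselves lay nearer the threshold in the PAC and VIN lists. The deposited lists give each peak a score between 830 and 1000, and the authors' score reached 1000 for 25.8% of members in the PAC list, against 78.8% of all regions in that list. The share was 29.2% against 74.6% in the VIN list and 55.9% against 75.3% in the ERI list. By the authors' fold enrichment at the summit, the median member stood at percentile 44.5 of the ERI list, 33.7 of the PAC list and 32.1 of the VIN list. Members just inside the rule by ERI score were regions at or near H4c17, Pdia5 and Lhfpl3. Just outside it, with Control scores of 830, 830 and 831, lay regions nearest Gm41408, Igf2r and Txnrd1. The Igf2r region held 10.6 and 7.79 CPM in PB3-Parental and 16.4 and 15.6 in PB3-ERI-R. The Pdia5 region held 3.55 and 3.06 CPM in PB3-Parental and 7.34 and 11.6 in PB3-ERI-R.

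Differences between resistant lines were tested where all of them had a peak, in the 582 regions of all 3 lists. PB3-ERI-R was higher than PB3-PAC-R in 393 and lower in 1, or 67.7% called, where 73.0% of all regions were called, 35.3% higher and 37.6% lower. The median log2 difference was 0.95 (0.22 to 2.01 between the 10th and 90th percentiles), against 0.04 over all regions and 0.36 over regions in all 4 lists. PB3-ERI-R was higher than PB3-VIN-R in 408 and lower in 2, or 70.4% called against 73.1% of all regions (35.5% higher, 37.5% lower), with a median of 0.99. Regions in all 4 lists also leaned to PB3-ERI-R, with 44.0% higher and 8.70% lower than in PB3-PAC-R. Against PB3-VIN-R those shares were 44.1% and 8.34%. In the 582 regions the share called was thus near that of all regions, and the direction was not. The rule bears on that direction: it asks for no parental peak, and PB3-PAC-R and PB3-VIN-R lay within -0.37 to 0.35 and -0.46 to 0.39 of the parental line (log2) at the 10th and 90th percentiles of all regions. With library sizes alone, the median over all regions for PB3-ERI-R against PB3-PAC-R moved from 0.04 to -0.33 and the median of the 582 regions from 0.95 to 0.58, and loess offsets moved them to 0.19 and 1.44.

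Between PB3-PAC-R and PB3-VIN-R, edgeR called 0 of these 582 regions at an adjusted p of 0.05. Of the 582, 24 had an unadjusted p under 0.05, beside 2491 of all 57415 regions. DESeq2 called 0 of the 535 to which it gave an adjusted p. Over all regions edgeR called 0.00871%, and DESeq2 0.130% of the 46285 to which it gave an adjusted p. The median log2 difference was 0.03, with 10th and 90th percentiles of -0.23 and 0.31, and the median SE of a single region was 0.26.

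**Figure D3:**
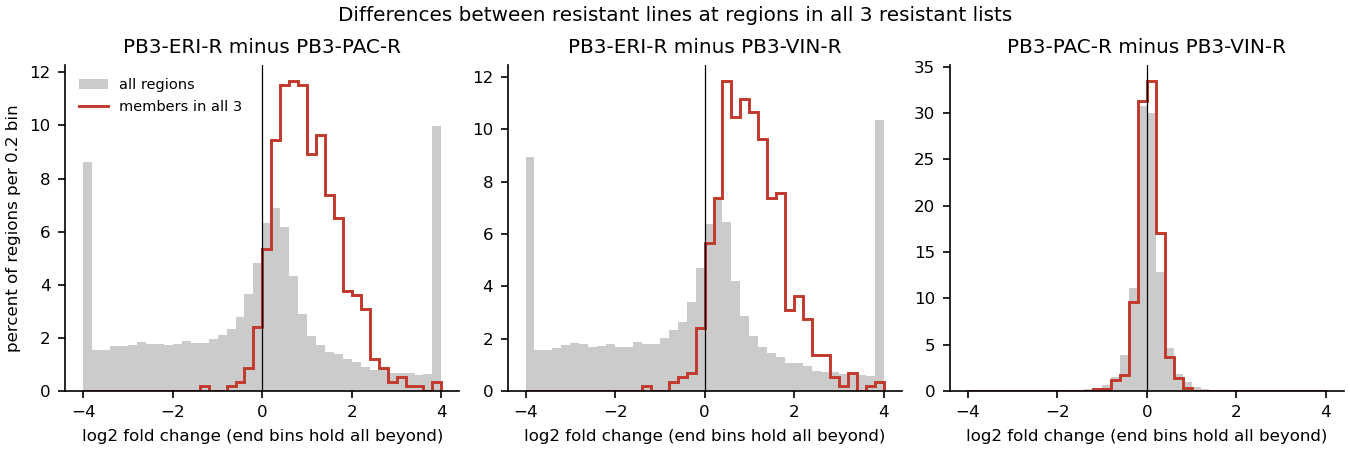
Percent of regions in bins of 0.2 of the log2 fold change for each pair of resistant lines, for the 582 regions in all 3 resistant lists (red outline) and for all regions (grey). The red outline is centred on medians of 0.95 and 0.99 for PB3-ERI-R against PB3-PAC-R and PB3-VIN-R, and on 0.03 for PB3-PAC-R against PB3-VIN-R.

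Among regions of all 3 lists whose average log2 CPM reached 1, with a gene within 50 kb and libraries that did not overlap, the largest differences between PB3-ERI-R and the other resistant lines lay inside Cdk14, Slc5a1 and Slc39a11. Cdk14 encodes a cyclin-dependent kinase, Slc5a1 a sodium-glucose cotransporter and Slc39a11 a zinc transporter. The Cdk14 region (chr5:5326576-5327285) held 5.36 and 4.26 CPM in PB3-Parental, 96.5 and 85.4 in PB3-ERI-R, 6.85 and 5.55 in PB3-PAC-R, and 3.89 and 3.99 in PB3-VIN-R. PB3-ERI-R exceeded PB3-PAC-R by 3.87 ± 0.21 (log2; edgeR adjusted p = 2.37e-09) and PB3-VIN-R by 4.53 ± 0.21, and the other 6 libraries ran from 3.89 to 6.85. The Slc5a1 region (chr5:33121679-33122327) held 7.22 and 5.32 CPM in PB3-Parental and 91.9 and 69.0 in PB3-ERI-R, with 5.58 to 8.70 in the other 4 libraries. The Slc39a11 region (chr11:113291942-113292733) held 9.87 and 13.0 CPM in PB3-Parental, 106 and 95 in PB3-ERI-R and 8.70 to 11.2 in the other 4. All 3 lay in 5 Mb windows whose median PB3-ERI-R difference from the parental line, over all regions, was 1.97, 1.66 and 1.20. After offsets for that window median the difference from PB3-PAC-R was 1.89 at Cdk14, 1.82 at Slc5a1 and 2.00 at Slc39a11, and each still passed.

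A region 46.2 kb from Dusp5, a phosphatase gene that restrains ERK signalling, went the other way. It held 30.5 and 16.3 CPM in PB3-Parental, 17.7 and 17.4 in PB3-ERI-R, 39.1 and 43.2 in PB3-PAC-R, and 48.2 and 36.7 in PB3-VIN-R. All 4 PB3-PAC-R and PB3-VIN-R libraries lay above the rest. PB3-ERI-R was lower than PB3-PAC-R, at -1.23 ± 0.25 (log2; edgeR adjusted p = 0.000458), and than PB3-VIN-R, at -1.27 ± 0.25 (0.000313 by the same test). Its window had a PB3-ERI-R median of -0.92, and with window offsets the differences were -0.33 and -0.43 and no longer passed. Named after its values were seen, a region nearest Cops8 was also lower in PB3-ERI-R than in PB3-VIN-R, at -0.79 ± 0.25 (edgeR adjusted p = 0.0102).

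Regions with clearly higher counts than the parental line in every resistant line were few and mostly highest in PB3-ERI-R. The naming rule took the 10 regions of all 3 lists whose smallest gain over the parental line was greatest, which lay at or near C1qtnf7, Rtp3, Cmpk2, Adgrv1, Lrp6, Slc13a1, Hc, Esrrg, Synpo and Ube2v1. None of them passed over PB3-Parental in PB3-PAC-R (lowest edgeR adjusted p = 0.105, at Rtp3). In PB3-VIN-R only Rtp3 passed (0.0341 by the same test), and Adgrv1 did not pass in PB3-ERI-R (0.0591). Near Rtp3, a receptor transporter gene, the region chr9:110999902-111000416 held 4.76 and 5.12 CPM in PB3-Parental, 55.0 and 50.7 in PB3-ERI-R, 9.63 and 10.5 in PB3-PAC-R, and 10.6 and 9.99 in PB3-VIN-R. The gain over PB3-Parental was 3.42 ± 0.21, 1.02 ± 0.21 and 1.06 ± 0.21 on the log2 scale in the order ERI, PAC, VIN. Near Lrp6, which encodes a Wnt co-receptor, the region held 7.52 and 5.86 CPM in PB3-Parental, 12.1 and 13.0 in PB3-ERI-R, 10.7 and 13.3 in PB3-PAC-R, and 12.8 and 12.8 in PB3-VIN-R, so the resistant libraries overlapped each other and lay above the parental ones. PB3-ERI-R differed there from PB3-PAC-R by 0.06 ± 0.24 and from PB3-VIN-R by -0.03 ± 0.23 (log2; edgeR adjusted p = 0.823 and 0.905). Inside Adgrv1, an adhesion receptor gene, the 6 resistant libraries ran from 8.97 to 13.0 CPM, while the parental libraries differed from each other, at 7.40 and 2.33. The other 2 Adgrv1 members were higher in PB3-ERI-R than in PB3-PAC-R by 2.15 ± 0.29 and 1.45 ± 0.25 (log2), the second becoming 0.91 with window offsets, which still passed.

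Within C1qtnf7, a secreted C1q/TNF-related protein gene, a region at chr5:43555420-43555890 held 4.88 and 3.93 CPM in PB3-Parental, 24.9 and 26.4 in PB3-ERI-R, 7.47 and 11.4 in PB3-PAC-R, and 8.09 and 12.8 in PB3-VIN-R. PB3-ERI-R exceeded PB3-PAC-R by 1.44 ± 0.28 (log2; edgeR adjusted p = 0.000318), but the sign turned to -0.37 with window offsets, the median of all regions in that 5 Mb window being 1.93 in PB3-ERI-R. At Cmpk2 the difference of 1.29 ± 0.24 from PB3-PAC-R (edgeR adjusted p = 0.000177) became 0.44 with window offsets and did not pass (window median 0.91). Near Slc13a1, a sodium-sulfate cotransporter gene, PB3-ERI-R held 25.3 and 28.3 CPM and the other resistant libraries 5.43 to 9.19, against 4.70 and 1.60 in PB3-Parental. Its difference from PB3-VIN-R, 1.72 ± 0.33, became 0.77 with window offsets and did not pass (window median 0.92), and that from PB3-PAC-R, 2.26 ± 0.35, became 1.37 and passed. Near Synpo, which encodes an actin-associated protein, all 6 resistant libraries (76.1 to 133 CPM) lay above both parental ones (70.4 and 27.4), which were far apart. Inside Esrrg, an orphan nuclear receptor gene, the values were 5.78 and 3.19 CPM in PB3-Parental, 17.6 and 25.1 in PB3-ERI-R, 7.16 and 8.29 in PB3-PAC-R, and 9.77 and 16.6 in PB3-VIN-R.

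A region 138.9 kb from Slc27a6, a fatty acid transporter gene, was the 1 member past the threshold in PB3-PAC-R over PB3-Parental, and was named after the values were seen. It held 2.77 and 1.93 CPM in PB3-Parental, 26.2 and 22.3 in PB3-ERI-R, 9.44 and 12.5 in PB3-PAC-R, and 15.5 and 18.6 in PB3-VIN-R. PB3-Parental lay lowest and the 4 lines did not overlap. The gains were 3.36 ± 0.28, 2.21 ± 0.28 and 2.85 ± 0.28 on the log2 scale in the order ERI, PAC, VIN.

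In regions of the ERI and VIN lists only, the rule named Ntrk2, Kcnma1, Auts2, Rtl3 and Dcdc5. Ntrk2, the gene of the neurotrophin receptor TrkB, had a region inside its body that held 0.662 and 0.532 CPM in PB3-Parental, 43.4 and 43.3 in PB3-ERI-R, 2.16 and 0.479 in PB3-PAC-R, and 3.78 and 3.41 in PB3-VIN-R. PB3-VIN-R lay above the parental and PB3-PAC-R libraries but below PB3-ERI-R by 3.59 ± 0.36 (log2; edgeR adjusted p = 4.34e-07). At Kcnma1, a calcium-activated potassium channel gene, PB3-VIN-R held 5.11 and 6.87 CPM against 24.3 and 21.7 in PB3-ERI-R, and 0.466 to 2.05 in PB3-Parental and PB3-PAC-R. Inside Auts2, a neurodevelopmental regulator gene, the region held 3.55 and 1.73 CPM in PB3-Parental, 102 and 66.2 in PB3-ERI-R, 4.81 and 1.85 in PB3-PAC-R, and 13.0 and 10.2 in PB3-VIN-R. The rule bears on the direction in this class as well, since it asks for no parental peak. The median PB3-VIN-R difference from the parental line was 0.10 (log2) in the class. Over its 740 regions, PB3-ERI-R was higher than PB3-VIN-R in 645 (87.2%, against 35.5% of all regions). It was lower in 1 (0.135%, against 37.5%), a region inside Sipa1l3 that was named after its values were seen. Its difference was -0.45 ± 0.16 (log2; edgeR adjusted p = 0.0222).

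In regions of the ERI and PAC lists only, the rule named Cacna1c, Mobp, BC035044, Wdr38 and Btbd3. Cacna1c encodes the pore of a voltage-gated calcium channel, and its region held 6.08 and 3.46 CPM in PB3-Parental, 46.2 and 26.5 in PB3-ERI-R, 17.1 and 12.1 in PB3-PAC-R, and 10.1 and 9.15 in PB3-VIN-R. All resistant libraries thus lay above the parental ones although the VIN list had no peak. Inside Btbd3 the region held 3.85 and 4.39 CPM in PB3-Parental, 42.3 and 41.0 in PB3-ERI-R, 7.35 and 5.55 in PB3-PAC-R, and 3.01 and 3.0 in PB3-VIN-R. PB3-ERI-R exceeded PB3-PAC-R there by 2.69 ± 0.23 (log2; edgeR adjusted p = 1.17e-07). Of the 144 regions, PB3-ERI-R was higher than PB3-PAC-R in 113 (78.5%, against 35.3% of all regions) and lower in 0 (against 37.6%). The rule bears on this direction too, and the median PB3-PAC-R difference from the parental line was 0.10 (log2) in these regions.

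At the other end, members with the smallest gains lay near Adamts14, Fgf2 and Hspa1b. Adamts14 encodes a procollagen-processing protease, and its region ran from 18.1 to 26.4 CPM over the 8 libraries, with PB3-Parental at 26.4 and 19.6. Hspa1b encodes a heat shock chaperone, and its region ran from 10.3 to 16.0 CPM, with both extremes in PB3-Parental. Inside Fgf2, a growth factor gene, the region held 13.8 and 22.6 CPM in PB3-Parental, 17.6 and 17.5 in PB3-ERI-R, 12.8 and 15.1 in PB3-PAC-R, and 12.1 and 8.86 in PB3-VIN-R. These 3 regions had no parental peak, yet in each the range of the parental libraries overlapped that of the resistant ones.

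**Figure D4:**
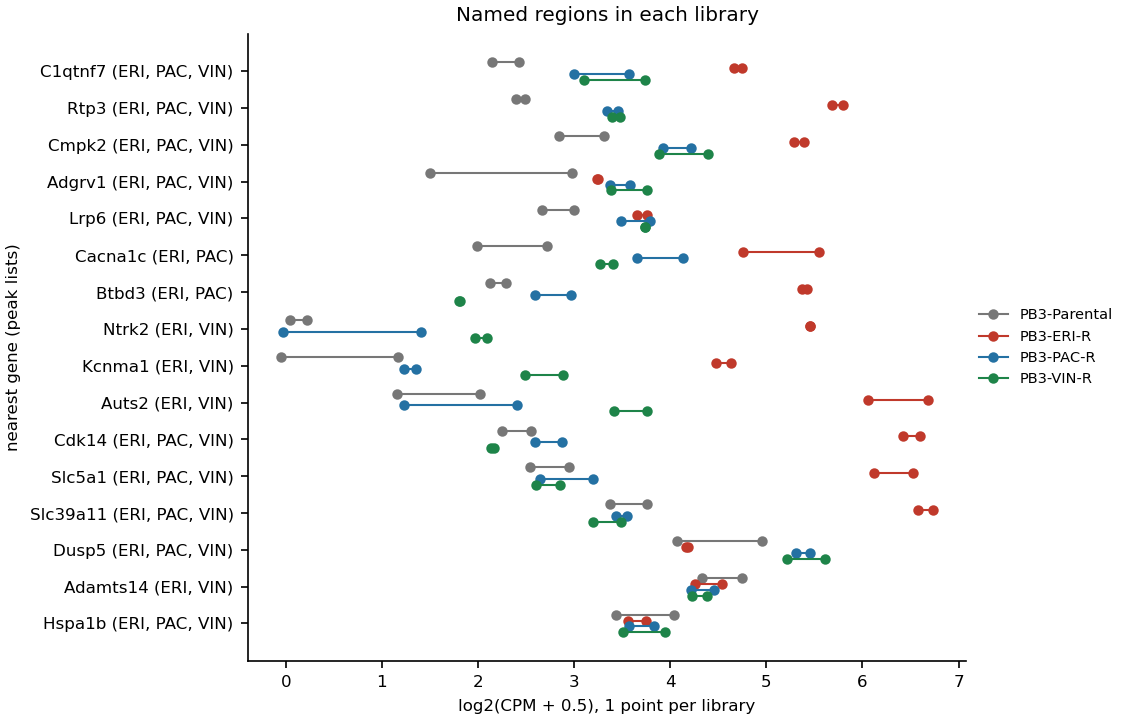
Each pair of joined points shows log2(CPM + 0.5) of a named region in the 2 libraries of a line, labelled by its nearest gene and its peak lists. PB3-ERI-R stands apart at Rtp3, Btbd3, Ntrk2, Auts2, Cdk14, Slc5a1 and Slc39a11, the resistant lines overlap at Lrp6, PB3-ERI-R is below the other resistant lines at Dusp5, and all lines overlap at Adamts14 and Hspa1b.

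Members lay within 50 kb of 1149 protein-coding genes, 7.68% of the 14967 genes with any region, and 96 genes had more than 1. Gene lists are given by how many genes had a member, beside the number of regions they hold, since genes with more regions have more chances. In regions of the ERI and VIN lists alone the comparison with PB3-PAC-R is tied to the rule. The gene list counts below do not split members by class. Where a region's lists are not named, its difference from PB3-PAC-R may be tied in this way. Of 30 TGF-beta pathway genes, 5 had 7 members among 201 regions, and all 7 were higher in PB3-ERI-R than in PB3-PAC-R. That was so for 80.3% of all 1466 members and 35.3% of all regions, so a high share in a list reads as that of the set. The receptors were Tgfbr2, Tgfbr3, Acvr1 and Bmpr2, and Smurf1 encodes a ubiquitin ligase that removes receptors and Smads. The region 2.5 kb from Tgfbr2 held 7.64 and 10.2 CPM in PB3-Parental, 46.2 and 33.4 in PB3-ERI-R, 7.04 and 7.33 in PB3-PAC-R, and 8.16 and 7.74 in PB3-VIN-R, with PB3-ERI-R above PB3-VIN-R by 2.32 ± 0.24 (log2; edgeR adjusted p = 5.51e-07). At Acvr1, PB3-ERI-R held 30.7 and 24.2 CPM, PB3-Parental 7.83 and 7.92, and the PB3-PAC-R and PB3-VIN-R libraries 9.61 to 13.8. The named Smurf1 region differed from PB3-PAC-R by 2.37 ± 0.23 (log2; edgeR adjusted p = 3.39e-07), but by 0.44 with window offsets, which did not pass.

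Of 23 SWI/SNF genes with a region, 5 had 5 members among 72 regions, namely Smarcd3, Arid1a, Arid1b, Dpf1 and Bcl7a, and 3 members were higher in PB3-ERI-R than in PB3-PAC-R, where 80.3% of all members and 35.3% of all regions were. Arid1b, a DNA-binding subunit gene, did not pass in any comparison of resistant lines: its region held 11.3 and 5.92 CPM in PB3-Parental, 13.2 and 11.2 in PB3-ERI-R, 9.94 and 7.67 in PB3-PAC-R, and 11.1 and 10.9 in PB3-VIN-R. At Dpf1, PB3-ERI-R (15.2 and 14.5 CPM) exceeded PB3-VIN-R (9.80 and 9.95) by 0.59 ± 0.23 on the log2 scale (edgeR adjusted p = 0.0339), and by 0.28 with window offsets, which did not pass. The Smarcd3 difference from PB3-VIN-R, 1.45 ± 0.27, turned to -0.06 with window offsets (window median 1.51).

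None of the 18 epithelial transcription and splicing factor genes with a region had a member among 86 regions. Of 27 epithelial adhesion and keratin genes, 2 did (7.41%, beside 7.68% of all genes with a region), with 2 members among 118 regions. The Pkp2 region, at an end of a desmosome plaque gene, held 15.8 and 22.2 CPM in PB3-Parental, 43.7 and 34.3 in PB3-ERI-R, 16.5 and 17.2 in PB3-PAC-R, and 14.4 and 21.4 in PB3-VIN-R, with PB3-ERI-R above PB3-PAC-R by 1.21 ± 0.24 (log2; edgeR adjusted p = 0.000324). At Krt18, a luminal keratin gene, the lines overlapped at 12.2 to 27.5 CPM. Of 17 genes of EMT (epithelial-mesenchymal transition) transcription factors, Zeb1, Foxc2 and Sox4 had a member each (17.6%). That was 3 members among 94 regions, where 2.553% of all consensus regions were members. The Zeb1 member, in a gene whose product represses epithelial genes, held 4.82 and 4.33 CPM in PB3-Parental, 19.7 and 20.4 in PB3-ERI-R, 6.54 and 4.86 in PB3-PAC-R, and 4.27 and 4.33 in PB3-VIN-R. Near Sox4 the 8 libraries ran from 9.72 to 12.8 CPM. Of 31 mesenchymal and matrix genes, 1 (Itgb3, an integrin gene) had a member (3.23%), 1 among 148 regions.

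Other lists had few members each. Hippo effectors had 4 of 16 genes (Wwtr1, Tead4, Ccn1, Amotl2), with 4 members among 132 regions. Receptor tyrosine kinases and ligands had 4 of 24 (Fgfr3, Fgf1, Fgf2, Epha2), with 4 among 170. Wnt and Notch genes had 5 of 25 (Wnt5b, Lrp6, Notch1, Hes1, Hey1), with 5 among 160. Tubulin and microtubule-associated protein genes had 4 of 34 (Tubg1, Map4, Mapre2, Clip1), with 4 among 176. Of all consensus regions, 2.553% were members. At Fgfr3, a growth factor receptor gene in the ERI and VIN lists, PB3-ERI-R held 103 and 76.7 CPM and the other 6 libraries 13.5 to 20. Its difference from PB3-VIN-R, 2.37 ± 0.20 (log2), became 0.70 with window offsets and still passed (window median 1.66). Near Tubg1, which encodes the tubulin that nucleates microtubules, PB3-ERI-R held 18.5 and 17.2 CPM and the other 6 libraries 5.65 to 8.42, with a difference from PB3-PAC-R of 1.16 ± 0.25 (log2; edgeR adjusted p = 0.000682). Hey1, a Notch target gene, held 20.7 and 18.8 CPM in PB3-ERI-R and 10.5 to 16.1 elsewhere, and its difference from PB3-PAC-R turned from 0.83 ± 0.23 to -0.12 with window offsets. Of AP-1 genes, 1 of 14 had a member (1 among 74 regions), 42.9 kb from Fos. There PB3-ERI-R held 45.3 and 34.5 CPM and the other libraries 3.52 to 5.39. Of interferon response genes, 1 of 13 had a member (Ifih1, an RNA sensor gene, 1 among 24 regions), and of housekeeping genes 1 of 15 (Ywhaz, 1 among 35). The 20 mitotic and spindle checkpoint genes and 5 Runx factor genes had no member among 58 and 53 regions. Of drug efflux and detoxification genes, 1 of 23 had members, Ugt1a6a, with 2 among 81 regions.

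Markers of other cell types gave little. None of the 6 macrophage and 8 endothelial marker genes with a region had a member, among 17 and 25 regions. Of 5 adipocyte markers 1 did (Pparg, 1 among 17 regions), and of 13 neural markers 1 (Ncam1, 1 among 63). The Ncam1 region ran from 14.3 to 19.0 CPM over the 8 libraries. Mammary luminal markers had 3 of 15 genes (Krt18, Ltf, Aldh1a3), with 3 members among 50 regions. Basal markers had 1 of 14, Itgb4, an integrin of the basal epithelial anchor, with 1 among 58. At Itgb4, PB3-ERI-R held 145 and 100 CPM and the other 6 libraries 15.9 to 23.8, and the difference from PB3-VIN-R, 2.47 ± 0.20 (log2), became 1.11 with window offsets and still passed. With these offsets the luminal Ltf member in PB3-ERI-R exceeded PB3-PAC-R by 2.28 and PB3-VIN-R by 1.8. The Aldh1a3 member exceeded them by 1.22 and 1.15 (log2), and each passed. Krt18 passed against neither in the main fit (edgeR adjusted p = 0.179 and 0.232). The part of cell mixture in these values was not tested.

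Foxp1, a forkhead transcription factor gene, and Kalrn, a guanine nucleotide exchange factor gene, held 4 members each. The Foxp1 members in all 3 lists exceeded PB3-PAC-R by 1.12 ± 0.22 and 0.49 ± 0.16 on the log2 scale (edgeR adjusted p = 0.000301 and 0.0141), the second becoming 0.35 with window offsets, which did not pass. The one in the ERI and VIN lists held 12.3 and 7.99 CPM in PB3-Parental, 59.7 and 41.9 in PB3-ERI-R and 14.7 and 10.8 in PB3-VIN-R. Within Kalrn the members, all in the ERI and VIN lists, differed from each other: 1 held 58.6 and 57.4 CPM in PB3-ERI-R against 3.42 to 5.84 elsewhere, and another 7.52 and 8.41 against 3.13 to 11.9. Regions of 1 gene are not replicates of a condition.

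Members lay away from gene ends more often than regions shared by all lines. Of the members, 18.5% were at most 1 kb from an end of a gene (95% exact binomial interval 16.5 to 20.6), against 21.6% of all regions, 48.0% of regions in all 4 lists and 8.90% of ERI-only regions (8.34 to 9.48). Inside genes lay 52.7%, against 58.7%, 72.3% and 49.7% in the same order, and beyond 50 kb from a gene 14.0%, against 15.9%, 7.95% and 21.0%. The median width was 428 bp, against 473, 678 and 457 bp. Intervals cover counting error only. Among the 582 regions, PB3-ERI-R was higher than PB3-PAC-R in 67.7% of the 99 near a gene end and 67.5% of the other 483.

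Chromosomes contributed unequally. Members made up 4.84% of the regions of chromosome X, 3.92% of chromosome 5 and 3.58% of chromosome 11, and 1.18% of chromosome 19. Over all regions, the median PB3-ERI-R difference from the parental line was 0.69 on chromosome X, 0.56 on chromosome 5 and -0.37 on chromosome 19 (log2). On chromosome 15 the median member lay above the parental line by 0.28 in PB3-PAC-R and by 0.23 in PB3-VIN-R, and on chromosome 6 by 0.26 and 0.22. In the 29 windows of 5 Mb with a median of at least 1 in PB3-ERI-R, 177 of 2912 regions were members (6.08%), or 12.1% of all members, and all 67 of them in the 3 lists were called higher than in PB3-PAC-R. In the 327 windows with a median between -0.5 and 0.5, 1048 of 42251 regions were members (2.48%), and 273 of 431 were called higher. The window from 115 to 120 Mb of chromosome 11 held the most members, 36. Copy number was not measured here, and its part in these differences was not tested; with window offsets the median difference from PB3-PAC-R in the 582 regions was 0.67.

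**Figure D5:**
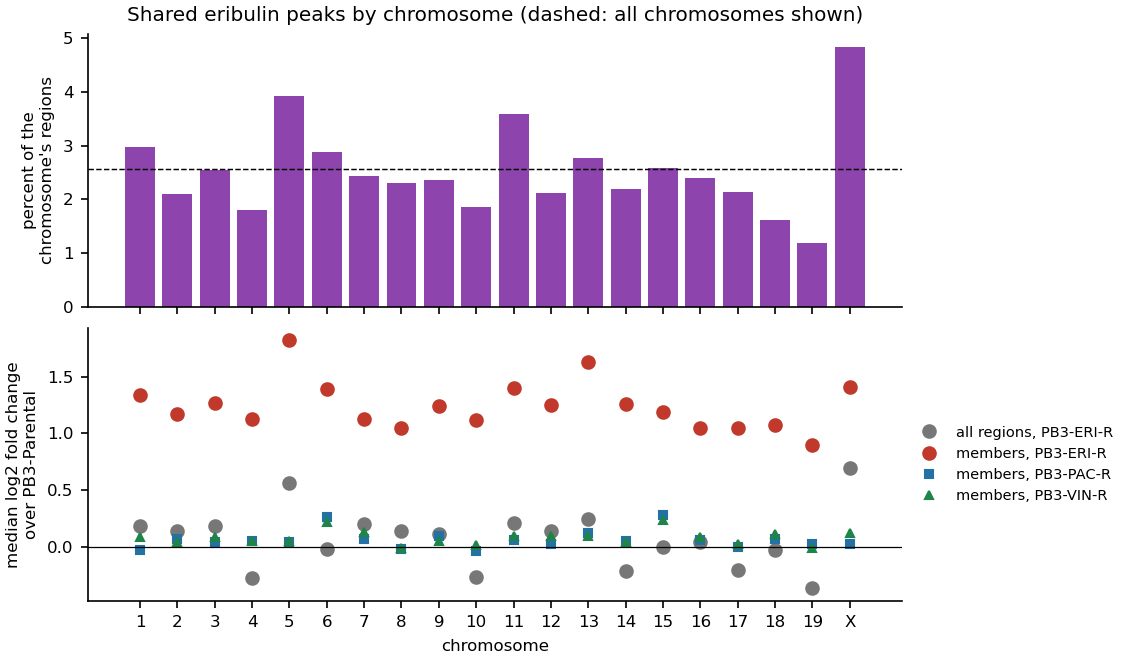
Upper panel: members as a percent of each chromosome's consensus regions, with the value over the chromosomes shown dashed. Lower panel: median log2 fold change over PB3-Parental, of all regions in PB3-ERI-R (grey) and of members in each resistant line; members sit above the grey points on each chromosome shown in PB3-ERI-R, and nearer 0 in the other resistant lines, whose medians are highest on chromosome 15 (0.28 and 0.23).

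In PB3-ERI-R against PB3-PAC-R and PB3-VIN-R, the other regions of the same genes had smaller median differences than the members, with calls in both directions. The medians of all members, 1.26 and 1.22 (log2), are tied to the rule. For 1031 genes with a member and further tested regions, counts of the non-member regions were summed per gene. In PB3-ERI-R against PB3-PAC-R these sums were higher for 444 genes (43.1%, against 29.2% of all 14849 genes) and lower for 285 (27.6%, against 31.3%), with a median of 0.16 on the log2 scale. Against PB3-VIN-R they were higher for 420 genes (40.7%, against 28.6%) and lower for 271 (26.3%, against 30.6%). For the 427 genes whose member was in all 3 lists, 171 sums were higher than in PB3-PAC-R (40.0%) and 127 lower (29.7%).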

How the data were processed

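ATAC-seq of the 4 PB3 lines gave 8 libraries, placed in groups by their labelled cell line. Per the submitters' processing notes, deepTools, featureCounts, Picard, MACS2 2.1.1, Bowtie2 2.2.6, cutadapt 1.9.1 and bcl2fastq 2.20.0.422 were used with builds mm10 and GRCm38. Their settings, and whether a count is a read or a fragment, were not stated in any source used here. The deposited count table holds raw counts for each consensus region. The deposited peak lists give, per summit, a score from 830 to 1000, a fold enrichment (ratio) and a -log10 p, all computed by the authors. There is 1 list per line, so peaks cannot be compared between replicates. Deposited region starts and ends and summit offsets are in bp.

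Members were found with bedtools 2.31.1. All regions were fitted with edgeR 4.0.16 in R 4.3.3, using filterByExpr, TMM scaling and a quasi-likelihood model with a term for each line over the 8 libraries. P-values were adjusted by Benjamini-Hochberg over 57415 regions and called under 0.05. The code was tested on simulated data. The SE given is |log2 fold change| over the root of the F statistic. A floor of 3 counts is 0.114 to 0.332 CPM per library, and floors and intervals cover counting error only. Replicates differed beyond that error, with chi-square over its degrees of freedom from 4.599 to 10.19. The nearest protein-coding gene, inside or at most 50 kb away, came from RefSeq GRCm38.p6 without strand, and exons and introns were not told apart. Exact binomial intervals used scipy 1.17.1. Alternatives included DESeq2 1.42.0, other scalings, filters, peak thresholds and left-out libraries.

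Members and the 23 gene lists were chosen with earlier results of these data known. The result of 1 list is not reported here. Regions named by rule had an average log2 CPM of at least 1 and a gene within 50 kb. The rule took the 10 regions of all 3 lists with the largest smallest gain over PB3-Parental, 5 from each class of 2 lists, up to 3 in each direction between resistant lines, up to 3 genes per list, the 3 with the smallest gains, the 5 genes with most members and 3 regions on each side of the peak threshold.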

Additional observations from a re-analysis of the deposited data

How the results depend on the processing

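Counts of the 582 regions called between PB3-ERI-R and the other resistant lines stayed within 1.5 times under other scalings, filters, DESeq2, the replicate block, a cover of 50% of the region and each left-out library. Left-out libraries gave 321 to 413 against PB3-PAC-R and 339 to 420 against PB3-VIN-R, library size alone 274 and 298, and loess offsets 530 and 526. Stricter peak lists (a higher score required in the resistant lists) left 465 members, of which 140 were in all 3 lists, with 109 and 106 of these called, 417 members gained in PB3-ERI-R and 12 in PB3-VIN-R. Against PB3-Parental, left-out libraries gave 1065 to 1226 gained regions for PB3-ERI-R, 0 to 7 for PB3-PAC-R and 1 to 31 for PB3-VIN-R. Without PB3-Parental replicate 1 the PB3-PAC-R and PB3-VIN-R counts were 7 and 31, without PB3-Parental replicate 2 they were 0 and 2, without either PB3-ERI-R library 0 and 3, without PB3-PAC-R replicate 2 the first was 0, and without either PB3-VIN-R library the second was 1. DESeq2 gave 7 for PB3-PAC-R, and library size alone and loess offsets gave 12 and 10 for PB3-VIN-R. The cause was not tested. PB3-PAC-R against PB3-VIN-R gave 0 without any 1 library. Replicate numbers are shared between lines by number only, and replicate differences correlated between lines at 0.124 to 0.52; with the replicate number as a block, 3 of the 582 regions were called between PB3-PAC-R and PB3-VIN-R (0.394% of all regions), 18 members gained in PB3-PAC-R (1.11% of all regions in either direction) and 74 for PB3-VIN-R (4.73%). Within 2 kb rather than 1 kb of a gene end lay 24.3% of members. Offsets by 5 Mb window reversed the C1qtnf7 region at 43555420 (-0.37 against PB3-PAC-R and -0.59 against PB3-VIN-R), the C1qtnf7 region at 43508976 (-0.89 and -0.15, with the first still past the threshold), Smarcd3 (-0.06 against PB3-VIN-R), Hey1 (-0.12 against PB3-PAC-R) and Lhfpl3 (-0.70, past the threshold, and -0.21). Among named regions, 46 of 59 calls against PB3-PAC-R and 46 of 62 against PB3-VIN-R held with these offsets, and 49 of each with library size alone. Single regions were measured with limited precision, with a median SE of 0.26 between PB3-PAC-R and PB3-VIN-R among the 582.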

Other observations

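Values that the naming rule did not reach were looked at afterwards. Inside Hs6st2, a heparan sulfate sulfotransferase gene, a region of the ERI and VIN lists held 3.61 and 5.06 CPM in PB3-Parental, 24.3 and 22.6 in PB3-ERI-R, 2.28 and 1.37 in PB3-PAC-R, and 11.8 and 12.9 in PB3-VIN-R. It was the 1 member called between PB3-PAC-R and PB3-VIN-R, at -2.75 ± 0.30 on the log2 scale (edgeR adjusted p = 0.00561). Of the PAC and VIN lists, only the VIN list had a peak there, which bears on that direction.

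Inside Med12l, a Mediator subunit gene, a region of the same lists held 11.2 and 12.6 CPM in PB3-Parental, 68.6 and 65.2 in PB3-ERI-R, 5.18 and 3.49 in PB3-PAC-R, and 11.1 and 14.3 in PB3-VIN-R. Both PB3-PAC-R libraries lay below every other library. Near Sik1, a salt-inducible kinase gene, a region of the ERI and PAC lists held 13.4 and 14.5 CPM in PB3-Parental, 67.2 and 58.4 in PB3-ERI-R, 11.4 and 9.79 in PB3-PAC-R, and 6.52 and 4.70 in PB3-VIN-R, with both PB3-VIN-R libraries lowest. At Sik1 the parental libraries lay between PB3-ERI-R and the rest, and at Med12l they overlapped PB3-VIN-R.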
